A study of Mus musculus with 6 samples.

Results

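The genes described here are Chil3, Ly6c2, Emb, Cd93 and Plac8, 5 mouse genes associated with monocytes that are not chemokine receptors. They were picked out by symbol, and each symbol had a single row among the 22027 genes of the deposited table. The genes were proposed with the comparison of injured and sham libraries already known, so their levels, intervals and calls in that comparison are a description and count as no evidence for a difference. In these data the 5 did not form a single pattern. The lowest injured library exceeded the highest sham library for Chil3, Emb and Cd93, whereas Ly6c2 and Plac8 overlapped between the groups. Ly6c2 rests on only 105 reads, and whether monocytes entered the sorted cells was not tested.

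The libraries came from cells labelled liver lymphatic endothelial cells, sorted from IL7-GFP reporter mice, in which green fluorescent protein reports the Il7 gene. The I/R group holds 3 libraries, titled as day 3 after ischemia and reperfusion, an injury in which blood flow is stopped and then restored, and the Sham group holds 3 libraries from sham-operated mice. All 6 libraries share the reporter and the words "GFP plus" in their column names. Each sample took 20000 to 50000 sorted cells, per the labels' protocols, lysed in TRIzol, and ribosomal RNA was depleted. Strain, age, the sorting gate, the reporter construct, the sham time point and the animals behind each sample are not stated by the labels, so any p-value measures only the spread between these samples, which may be technical.

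Classical monocytes are short-lived white blood cells that leave the bone marrow, travel in blood and enter injured tissue, where some turn into macrophages. In mice they carry the Ly6C antigen at a high level, while patrolling monocytes carry little of it. The injured liver is a well-known site of monocyte entry, beside its own resident macrophages, the Kupffer cells. Chil3 encodes a secreted chitinase-like protein of myeloid cells, Ly6c2 a membrane-anchored protein of the Ly6C antigen, and Plac8 a small cysteine-rich protein of myeloid and lymphoid cells. Emb encodes embigin, an immunoglobulin-family membrane protein that partners with monocarboxylate transporters, and Cd93 a C-type lectin-domain receptor found on endothelial and on myeloid cells.

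Depth ranged from 6297308 to 17086746 recovered reads per library, and the injured and sham libraries numbered 1 were the shallowest of their groups. Lymphatic markers were present in all 6 libraries, and their summed normalised count was 27430 to 44410 in I/R libraries against 8463 to 30320 in Sham libraries, with the lowest sum in Sham library 3. Kupffer cell markers summed to more, 91240 to 155200 in I/R libraries against 137000 to 155900 in Sham libraries. Hepatocyte markers summed to 38740 to 53810 in I/R libraries against 37270 to 64830 in Sham libraries. The libraries thus held transcripts of macrophages and of hepatocytes along with those of the labelled cells. In bulk RNA of this kind, more cells of a type and more RNA per cell cannot be told apart.

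The Chil3 gene spans chr3:106147554-106167564, minus strand (GRCm38, GENCODE M21). Its values were 115.6, 230.7 and 147.9 normalised counts in I/R libraries 1, 2 and 3, against 0, 22.0 and 25.1 in Sham libraries 1, 2 and 3. The groups did not overlap, and the lowest I/R value was 4.61 times the highest Sham value. The group means were 164.8 ± 59.4 in I/R and 15.7 ± 13.7 in Sham libraries (SD, n = 3 each), a ratio of 10.5. These values rest on 645 recovered reads in I/R and 54 in Sham libraries. The 0 in Sham library 1 allows up to 3 reads, or 4.89 normalised counts at the depth of that library. On the log2(value + 1) scale the difference was 4.24 (SE 1.09, 95% interval 1.82 to 6.65). That size leaned on the 0, since leaving out Sham library 1 gave 2.70, leaving out Sham library 2 gave 4.96 and leaving out Sham library 3 gave 5.05.

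The mouse genome carries a close copy of Chil3 beside it, Chil4, which encodes another chitinase-like protein, and the coding sequences of this pair are 94.4% identical. The stretch of coding bases 835 to 954 from the start codon, the window of 120 bases where the pair differs most, is shown because reads from such places tell the copies apart; capitals mark the 15 mismatches.
Chil3: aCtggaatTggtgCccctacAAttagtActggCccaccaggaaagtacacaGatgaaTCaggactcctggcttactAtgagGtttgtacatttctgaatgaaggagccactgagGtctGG
Chil4: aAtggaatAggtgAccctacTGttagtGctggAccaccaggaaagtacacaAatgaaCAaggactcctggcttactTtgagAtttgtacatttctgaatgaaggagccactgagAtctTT
Of the 50-base words in Chil3 transcripts, 28.5% also occur in transcripts of another gene, mostly Chil4. Chil4 was nevertheless listed at 3.04, 0 and 3.11 normalised counts in I/R libraries and at 4.89, 0 and 0 in Sham libraries, 9 recovered reads in all against 699 for Chil3. The other chitinase family genes examined, Chia1, Chil1, Chit1, Chil5 and Chil6, had at most 14 reads each over the 6 libraries. Chil3 was thus the member of its family with nearly all of the reads, and the sharing of reads with Chil4 leaves its exact value uncertain.

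The letters before the start of both genes are shown for the same reason, as bases upstream of the start in RefSeq and in GENCODE on GRCm38, at chr3:106167565-106167814 for Chil3 and chr3:106219508-106219729 for Chil4, minus strand. Capitals mark matches to TTCNNNGAA, a STAT-type motif, and to TTGCNNAA, a C/EBP-type motif, on either strand.
Chil3: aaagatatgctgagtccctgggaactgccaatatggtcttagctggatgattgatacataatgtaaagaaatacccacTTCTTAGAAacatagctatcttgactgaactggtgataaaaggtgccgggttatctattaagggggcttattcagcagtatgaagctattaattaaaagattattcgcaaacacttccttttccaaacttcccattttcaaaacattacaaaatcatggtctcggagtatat
Chil4: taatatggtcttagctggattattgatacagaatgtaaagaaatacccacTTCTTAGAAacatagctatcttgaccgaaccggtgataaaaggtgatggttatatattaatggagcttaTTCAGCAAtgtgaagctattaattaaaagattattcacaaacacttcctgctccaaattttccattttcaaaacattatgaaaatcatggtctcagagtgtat
In a local alignment of the windows of 250 bases before the RefSeq starts, 90.5% of the 222 aligned positions are identical. The STAT-type letters stand 172 bases before the RefSeq start of Chil3 and 200 bases before that of Chil4, and 7.0% of 32851 RefSeq promoter windows of 250 bases hold them. The C/EBP-type letters were found before Chil4 and before RefSeq start 2 of Plac8, and not before Chil3, Ly6c2 or Emb. Of all windows 9.6% hold them. Ly6c2 and Plac8 have 2 RefSeq starts each and are named where either window holds the letters, while the shares are per single window. The letters GAGGAA, a PU.1-type motif, were found before Ly6c2 and Plac8 and not before Chil3 or Emb, against 23.3% of all windows. CACCC, a KLF-type motif, was found before the RefSeq starts of Ly6c2, Emb and Plac8, against 52.0% of all windows. The windows of Emb and of start 2 of Plac8 hold 0 bases upstream of the GENCODE start. TGANTCA, of AP-1 type, and an IRF-type motif were found before none of Chil3, Ly6c2, Emb and Plac8, and 6.7% and 3.0% of all windows hold them. Such matches are descriptions of letters, and their absence from a window says nothing of a factor.

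The Emb gene spans chr13:117208536-117274415, plus strand. It had 182.6, 225.3 and 172.1 normalised counts in I/R libraries 1, 2 and 3, against 75.0, 47.9 and 40.6 in Sham libraries 1, 2 and 3. The groups did not overlap, with the lowest I/R value 2.30 times the highest Sham value. The means were 193.3 ± 28.2 in I/R and 54.5 ± 18.1 in Sham libraries (SD, n = 3 each), and the log2 difference was 1.85 (SE 0.35, 95% interval 1.06 to 2.63). Leaving out any 1 library gave 1.66 to 2.097, so no single library carried the difference. Part of Emb overlaps Gm17509, a gene annotated on the opposite strand, and 20.1% of the 50-base words of Emb transcripts also occur in its transcript. Gm17509 was listed at 0 in all 6 libraries, and no source used here says whether the counting used strand.

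Of 5 relatives and partners of Emb, 1 separated the groups, higher in I/R libraries. Over all tested genes 5.11% separated as higher and 4.48% as lower, so nothing is read from that count. Bsg and Nptn, its closest relatives in the immunoglobulin superfamily, had log2 differences of -0.053 (SE 0.18) and -0.067 (SE 0.18). Slc16a7, the lactate and pyruvate transporter that embigin is known to accompany, had 0.15 (SE 0.23), and Slc16a1 had -0.41 (SE 0.31). Slc16a3, encoding a lactate exporter of glycolytic cells, was at 200.8, 176.6 and 182.2 normalised counts in I/R libraries and at 96.1, 97.1 and 100.4 in Sham libraries. Its I/R values all lay above the Sham values with little spread inside either group, yet it did not pass over all genes (log2 difference 0.92, SE 0.27, limma adjusted p = 0.939).

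The Cd93 gene spans chr2:148436640-148443563, minus strand. It stood at 1696, 1838 and 1608 normalised counts in I/R libraries 1, 2 and 3, against 808.3, 421.7 and 505.5 in Sham libraries 1, 2 and 3. The lowest I/R library was 1.99 times the highest Sham library, and the I/R libraries lay close together. Means were 1714 ± 116 in I/R and 578.5 ± 203 in Sham libraries (SD, n = 3 each), with a log2 difference of 1.62 (SE 0.24, 95% interval 1.09 to 2.15). Without any 1 library the difference was 1.42 to 1.89. Of its 50-base words 0.7% occur in other genes, so near-identical copies matter little for this gene.

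Cd93 is made by endothelial as well as myeloid cells, and the summed lymphatic markers were also higher in 2 of the 3 I/R libraries than in any Sham library. All 8 lymphatic markers had positive log2 differences, from 0.47 to 1.43 with a median of 0.99. For 4 of them the unadjusted limma p was under 0.05, against 2.96% of all tested genes. Within the Sham group, library 2 had the highest lymphatic sum, 30320, and the lowest Cd93. Pan-endothelial markers summed to 15940 to 23880 in I/R against 14690 to 21440 in Sham libraries and overlapped. Set against Pecam1, a general endothelial gene, Cd93 was at 1030, 1486 and 718.9 per 1000 of Pecam1 in I/R libraries and at 539.7, 256.4 and 367.5 in Sham libraries. Set against Ptprc, the pan-leukocyte gene for CD45, it was at 258.6, 307.2 and 223.9 per 1000 in I/R libraries and at 92.7, 58.5 and 77.8 in Sham libraries. The groups stayed apart with either of these single genes as denominator. Pecam1 itself had a log2 difference of only 0.14 (SE 0.22). Of the 8 pan-endothelial markers, 6 had positive and 2 negative log2 differences, with a median of 0.51. The highest was 0.94 (SE 0.31) for Cldn5. Ratios to markers with larger differences are not given. The part of endothelial and lymphatic markers in the Cd93 difference was not tested.

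The 5 relatives and partners of Cd93 did not separate the groups, where 5.11% of all tested genes separated as higher and 4.48% as lower. Thbd, the thrombomodulin gene of the same lectin-domain family, had 2466, 2459 and 2493 normalised counts in I/R libraries and 4649, 1476 and 1152 in Sham libraries. Its I/R values were nearly equal and fell inside the wide Sham range. Clec14a and Cd248, the remaining genes of that family examined, had log2 differences of 0.26 (SE 0.36) and -0.15 (SE 0.65). Mmrn2 and Igfbp7, which encode matrix ligands of Cd93, had 0.75 (SE 0.34, limma adjusted p = 0.985) and -0.040 (SE 0.30).

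Ly6c2, the gene that names the Ly6C-high class of monocytes, spans chr15:75108158-75111970 on the minus strand. It was at 35.0, 7.31 and 9.34 normalised counts in I/R libraries 1, 2 and 3, against 0, 21.3 and 31.1 in Sham libraries 1, 2 and 3. The highest value of all was in an I/R library and the next pair in Sham libraries, so the groups were mixed. Means were 17.2 ± 15.4 in I/R and 17.5 ± 15.9 in Sham libraries (SD, n = 3 each), from 47 and 58 recovered reads. The log2 difference of 0.70 (SE 1.45, 95% interval -2.50 to 3.91) had no settled sign and was -0.88 without Sham library 1. No difference was detectable at this depth, and the interval leaves room for one of either sign.

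Ly6c2 also has a close copy, Ly6c1, whose protein is the form of the Ly6C antigen common on endothelium and lymphocytes, and their coding sequences are 97.7% identical. Bases 1 to 120 of the coding sequences, counted from the start codon, are shown because the pair differs most there; capitals mark the 6 mismatches.
Ly6c2: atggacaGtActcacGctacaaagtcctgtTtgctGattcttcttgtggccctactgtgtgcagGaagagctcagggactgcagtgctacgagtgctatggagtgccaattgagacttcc
Ly6c1: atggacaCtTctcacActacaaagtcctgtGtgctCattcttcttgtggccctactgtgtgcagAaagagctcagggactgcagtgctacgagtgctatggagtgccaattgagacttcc
Of the 50-base words of Ly6c2 transcripts, 31.2% occur in other genes, nearly all in Ly6c1, so reads of the pair could be split between them. Both copies had few reads, and how a split would move the difference was not tested. Ly6c1 was listed at 0, 7.31 and 0 normalised counts in I/R libraries and at 9.78, 0 and 10.8 in Sham libraries, 27 reads in all. It thus equalled Ly6c2 in I/R library 2 and had reads in Sham library 1, where Ly6c2 had none. Ly6e and Ly6a, broadly expressed genes of the same family, were far more abundant, with 38694 and 4598 reads, and had log2 differences of -0.12 (SE 0.18) and -0.042 (SE 0.42). Ly6g, the neutrophil member of the family, was at 0 in all 6 libraries.

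The Plac8 gene spans chr5:100553725-100572245, minus strand. Its values were 1039, 1239 and 1246 normalised counts in I/R libraries 1, 2 and 3, against 839.2, 1369 and 1809 in Sham libraries 1, 2 and 3. The I/R libraries all lay inside the range of the Sham libraries. Means were 1175 ± 118 in I/R and 1339 ± 486 in Sham libraries (SD, n = 3 each), and the log2 difference was -0.12 (SE 0.26, 95% interval -0.70 to 0.45), or 0.13 without Sham library 3. With 8406 reads over the libraries, Plac8 had the most reads of the 5, and its interval does not reach the log2 differences of Emb or Cd93. None of its 50-base words occurs in another gene. Its relatives Plac8l1, Plac9a and Cnfn were at 0 in all 6 libraries.

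**Figure D1:**
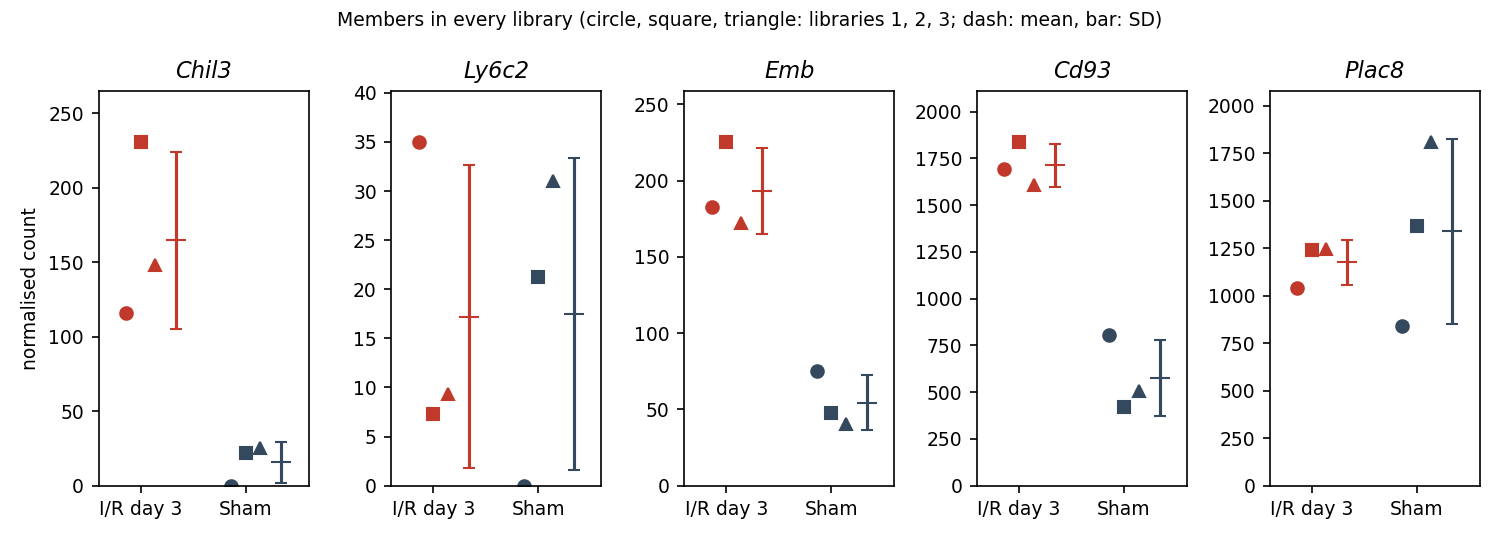
Normalised counts of the 5 genes, 1 panel per gene with its own axis from 0, in I/R libraries (red, left) and Sham libraries (blue, right); symbols mark libraries 1 to 3, the dash the mean and the bar the SD. Chil3, Emb and Cd93 do not overlap between the groups, while Ly6c2 (0 to 35.0) and Plac8 (839.2 to 1809) do.

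Across the 13434 genes tested, 5.11% had all I/R values above all Sham values, and so had 3 of the 5 genes. The 5 were chosen with this contrast in view, so nothing is read from that count or from the calls that follow. After adjustment over all tested genes, 0 of the 5 passed in limma, where 0.0298% of genes were called higher, and 3 of the 5 had an unadjusted p under 0.05, all higher, where 2.96% of all genes were higher and 1.48% lower. In edgeR 0 of the 5 passed, with 0.00744% of genes called higher, and DESeq2 called Chil3, Emb and Cd93 higher, with 0.192% of genes called higher and 0.0496% lower. Limma called Cd93 without Sham library 1, and none of the other 4 genes without any single library.

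Compared per length, as normalised counts per 1000 bases of annotated exon, Plac8 was the most abundant of the 5 in both groups, at 738.0 ± 73.8 in I/R and 841.1 ± 305 in Sham libraries (SD, n = 3 each). Cd93 came next, at 256.8 ± 17.4 in I/R and 86.6 ± 30.4 in Sham libraries. In I/R libraries Chil3 followed at 101.0 ± 36.4, then Emb at 28.0 ± 4.08 and Ly6c2 at 6.28 ± 5.63. In Sham libraries these last 3 were at 9.61 ± 8.38, 7.89 ± 2.62 and 6.37 ± 5.80 and could not be ordered beyond their spread. Among all genes with an annotated length, Plac8 ranked 654 by this measure, Cd93 2723, Chil3 6377, Emb 9948 and Ly6c2 12138.

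Per 1000 bases of exon, Chil3 stood at 70.85, 141.4 and 90.6 in I/R libraries, where Ly6c2 stood at 12.8, 2.67 and 3.41. In Sham libraries 2 and 3 Chil3 was at 13.45 and 15.4 and Ly6c2 at 7.77 and 11.3, and in Sham library 1 both were listed at 0. As root-mean-square distance between profiles centred over the 6 libraries on the log2 scale, Emb and Cd93 were the closest pair at 0.19. Every other pair lay between 1.05 and 2.52 apart, with Chil3 and Plac8 the farthest.

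**Figure D2:**
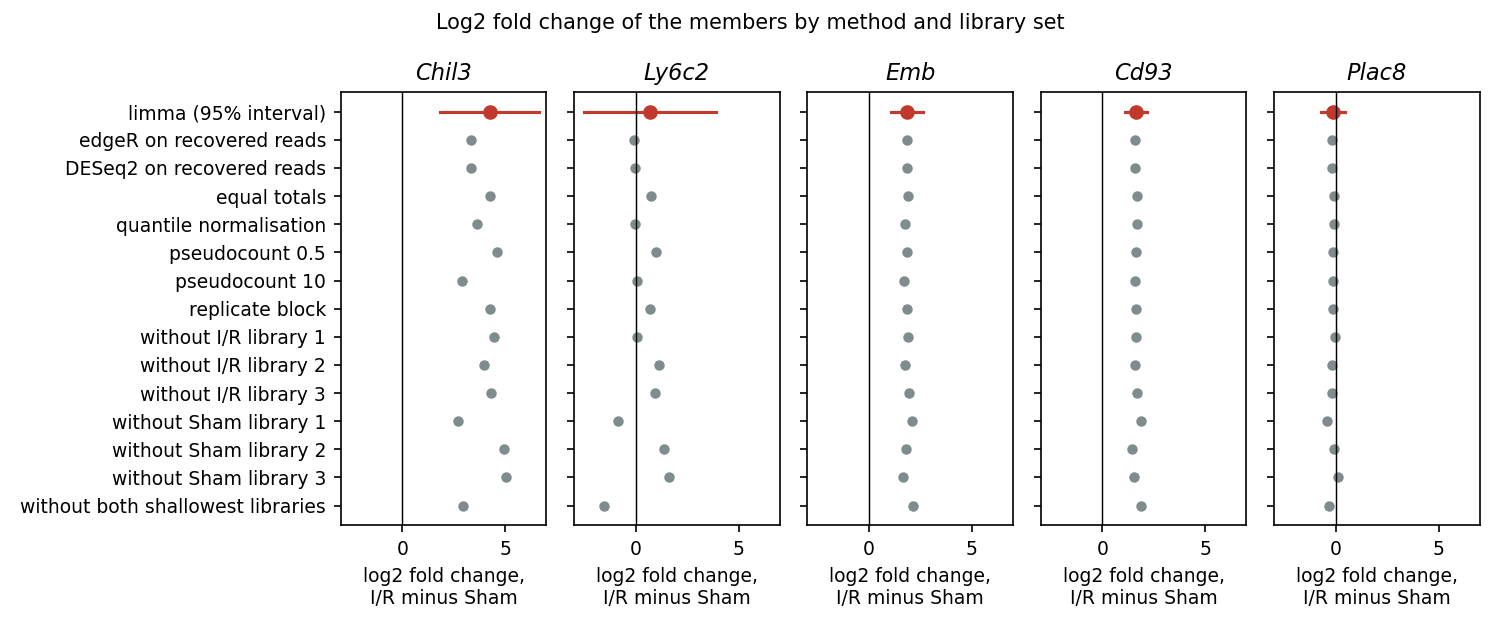
Log2 difference (I/R minus Sham) of the 5 genes under limma with its 95% interval (red) and under other methods, scalings and library sets (grey points). Emb and Cd93 stay near 1.85 and 1.62 throughout, Chil3 ranges from 2.70 to 5.05, and the points of Ly6c2 and Plac8 lie on either side of 0.

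By the same distance, among 10833 genes with a mean of at least 50, the profile nearest that of Emb belonged to Ccr1, a chemokine receptor gene, at 0.21, and the next to Myo5a, a motor protein gene, at 0.25. Nearest to Cd93 were S100a6, a calcium-binding protein gene, at 0.17 and the kinase gene Rps6ka2 at 0.23. Nearest to Plac8 were Mrps36 and Tmpo at 0.078 and 0.081, 2 genes that also overlapped between the groups. Chil3 and Ly6c2, the genes with a 0 in Sham library 1, had no such close neighbours, with Padi4 at 0.88 and Pclaf at 1.09 nearest to Chil3 and Rbm12 at 0.75 and Gldc at 0.80 nearest to Ly6c2. The mean profile of the 5 was nearest to mt-Nd4, Dbp, Hpse and Dhrs7b at 0.27 to 0.32. Those 4 genes share with it a lowest value in Sham library 1, where mt-Nd4 was at 2899 against 10550 or more in every other library.

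The wider set of classical monocyte genes was also mixed. Of 25 genes, all tested, 1 passed as higher and 0 as lower, where limma called 0.0298% of all tested genes higher and 0 lower. For 8 the I/R values all lay above and for 2 all below the Sham values, against 5.11% and 4.48% of all tested genes. An unadjusted limma p under 0.05 was found for 9, all higher, where 2.96% of all tested genes were higher and 1.48% lower. Positive log2 differences numbered 18 of the 25, against 6997 of 13434 tested genes. The median log2 difference of the 25 was 0.17, against 0.017 for all tested genes. It was 0.072 without Sham library 1, 0.36 without I/R library 3 and 0.30 without Sham library 3. F13a1, encoding a coagulation factor subunit, rose to 1321, 2051 and 1963 normalised counts in I/R libraries, against 563.8, 379.8 and 265.3 in Sham libraries (log2 difference 2.18, SE 0.28, limma adjusted p = 0.04165). Ccr2, the receptor that draws monocytes out of the marrow, was at 307.3, 429.2 and 237.5 in I/R libraries and at 44.0, 69.8 and 83.65 in Sham libraries, without passing (limma adjusted p = 0.115). Thbs1 and S100a6 had log2 differences of 1.52 (SE 0.24) and 1.42 (SE 0.31), likewise without passing (limma adjusted p = 0.115 and 0.508).

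The other genes of this list, named after their values were seen, went both ways. Besides the 4 above, the I/R values of Lyz2, Fn1, S100a4 and Ccl9 all lay above the Sham values, without passing in limma. Lyz2, the lysozyme gene, was at 34240, 41560 and 39180 normalised counts in I/R libraries and at 25510, 17230 and 21750 in Sham libraries. Fn1, the fibronectin gene, had a log2 difference of 0.92 (SE 0.21), S100a4, a calcium-binding protein gene, 2.05 (SE 0.55), and Ccl9, a chemokine gene, 1.16 (SE 0.28). DESeq2 called Lyz2 and Fn1 higher, and of the 4 above also F13a1, Ccr2 and Thbs1, but not S100a6, S100a4 or Ccl9. Over all genes it called 0.192% higher. Gsr and Cybb, genes of glutathione reduction and of the oxidative burst, had all I/R values below the Sham values, at -0.38 (SE 0.18) and -0.12 (SE 0.17). The remaining 15 genes overlapped between the groups, among them the following. Ifitm6, an interferon-induced membrane protein gene of blood monocytes, had a log2 difference of -0.091 (SE 0.41), and Ms4a4c, another membrane protein gene, 0.44 (SE 0.42). Hp, the haptoglobin gene, had 0.17 (SE 0.22), and Cd14, the endotoxin co-receptor gene, -0.065 (SE 0.19). Ifitm6 rests on 407 reads over the 6 libraries, and Cd14 on 92815.

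Genes of the turn from monocyte to macrophage included the other calls. Of 14 tested genes, 2 passed as higher, Adam8 (limma adjusted p = 0.0249) and Gpnmb (0.04165), and 0 as lower. Adam8, a membrane protease gene, rose to 345.4, 800.0 and 415.7 normalised counts in I/R libraries, against 53.8, 49.2 and 40.6 in Sham libraries. Gpnmb, a glycoprotein gene of lipid-laden macrophages, rose to 1226, 2978 and 1526 in I/R libraries, against 361.8, 180.9 and 126.7 in Sham libraries. Over all tested genes 0.0298% were called higher. The groups did not overlap for 5 of the 14, all higher in I/R libraries, against 5.11% of all tested genes. For 7 of the 14, all higher, the unadjusted limma p was under 0.05, against 2.96% higher and 1.48% lower of all tested genes. The log2 difference was positive for 12 of the 14, against 6997 of 13434 tested genes. The median log2 difference was 0.48, or 0.26 without Sham library 3. Trem2, a lipid-sensing receptor gene, was at 369.7, 516.9 and 367.5 normalised counts in I/R libraries and at 264.0, 149.7 and 147.0 in Sham libraries, and Fabp5, a fatty acid-binding protein gene, had a log2 difference of 1.07 (SE 0.31). Neither passed (limma adjusted p = 0.597 and 0.874). Over the 72 tested genes of the 5 monocyte lists, limma called 3 higher and 0 lower. It called 6 higher without Sham library 1, 1 without Sham library 3 and 0 without any 1 of the others, while edgeR called 1 and DESeq2 7.

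Patrolling monocyte genes gave no call in either direction. Of 14 tested genes, 0 passed in limma, edgeR or DESeq2. Over all genes limma called 0.0298% higher, edgeR 0.00744% and DESeq2 0.192%, and DESeq2 called 0.0496% lower. A count of 0 in a list of this size is near those shares. The unadjusted limma p was under 0.05 for 2, both higher, where 2.96% of all tested genes were higher and 1.48% lower. The groups did not overlap for 2 higher and 1 lower gene, against 5.11% and 4.48% of all tested genes. The log2 difference was negative for 10 of the 14, against 6437 of 13434 tested genes, and the median was -0.19, or 0.0030 without Sham library 2. Itgal and Pou2f2, an integrin gene and a transcription factor gene, had -0.46 (SE 0.23) and -0.33 (SE 0.20). Fabp4 and Pglyrp1, a lipid-binding protein gene and a bacterial wall receptor gene, had 1.34 (SE 0.36) and 2.01 (SE 0.64), and for both the groups did not overlap. Fabp4 is also a gene of endothelium.

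Transcription factors of the monocyte lineage gave 0 calls in limma, edgeR or DESeq2 among 13 tested genes, with a median log2 difference of -0.17. For 1 gene, lower in I/R libraries, the unadjusted limma p was under 0.05, against 1.48% of all tested genes. That 1 gene was Irf8, a factor needed for monocyte and dendritic cell development. It stood at 4152, 4768 and 4784 normalised counts in I/R libraries, below all Sham libraries at 6064, 7965 and 6911 (log2 difference -0.61, SE 0.17, limma adjusted p = 0.871). Spi1, the gene for PU.1, had -0.20 (SE 0.21), Cebpb -0.27 (SE 0.24) and Cebpe, on 96 reads, -2.36 (SE 1.41). Genes of alternative macrophage activation, a state in which Chil3 is a standard marker, also gave 0 calls by these tools among 10 tested genes. Their median was 0.0099, and 2 had an unadjusted limma p under 0.05, both higher, against 2.96% of all tested genes. For these genes and the transcription factors, 0 calls lie near the shares over all genes, at most 0.192% higher and 0.0496% lower in these tools. Arg1, the arginase gene often read together with Chil3, had 0.60 (SE 0.25) and Clec10a 0.94 (SE 0.40), each overlapping between the groups. Retnla, a secreted protein gene of the same state, had -0.40 (SE 0.84), and Pdcd1lg2 1.02 (SE 1.54). Arg1 and Mrc1 belong to this list and the monocyte-to-macrophage list, and Nr4a1 and Cebpb to the patrolling and transcription factor lists.

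**Figure D3:**
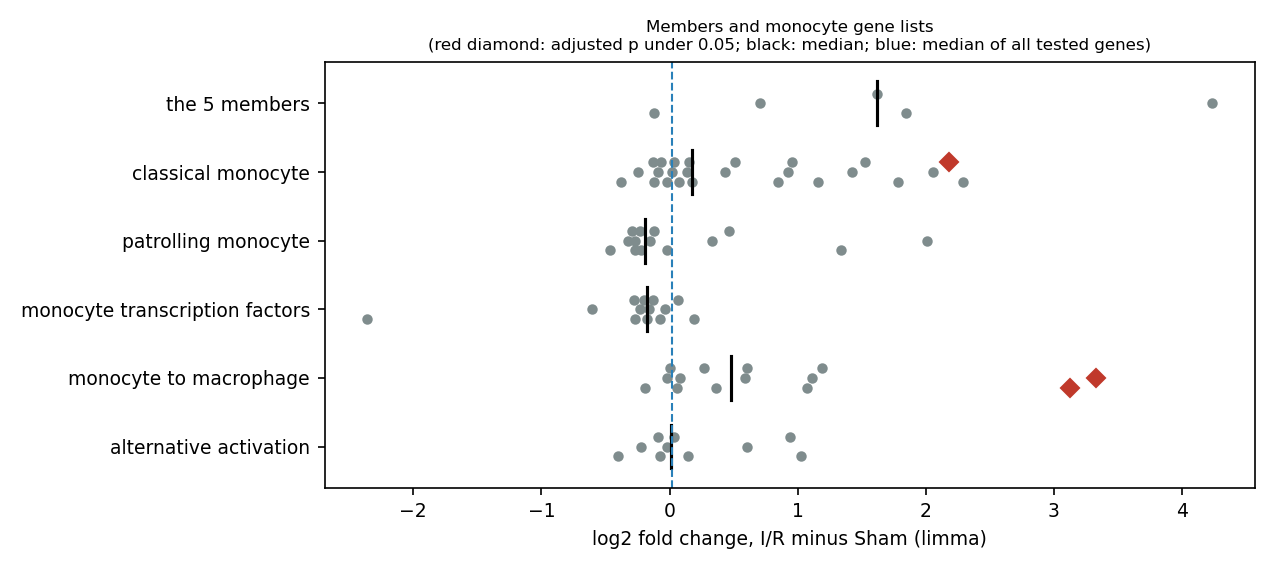
Log2 difference (I/R minus Sham, limma) of each tested gene in the 5 monocyte lists, with the 5 genes described here in the top row; black bars are list medians and the dashed line is the median of all tested genes, 0.017. Red diamonds mark the genes past the threshold, F13a1, Gpnmb and Adam8.

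Markers of other cells that can express these genes were measured beside them. Neutrophils can hold Chil3, and 4 of 12 neutrophil markers, Ly6g, Retnlg, Ngp and Elane, were at 0 in all libraries. The neutrophil list summed to 1429 to 1580 in I/R against 1252 to 1429 in Sham libraries, mostly from Csf3r, and S100a8 was at 10.9 to 24.3 in I/R against 9.56 to 35.85 in Sham libraries. Ltf, the lactoferrin gene of neutrophil granules, was at 512.7, 242.3 and 141.7 in I/R libraries and at 156.4, 91.8 and 31.1 in Sham libraries. It overlapped between the groups but was higher on average in I/R libraries (log2 difference 1.75, SE 0.60, limma adjusted p = 0.985). Mmp8, a neutrophil collagenase gene, was at 7.61, 26.8 and 7.79 in I/R libraries and at 0, 7.98 and 7.17 in Sham libraries. The part of neutrophil RNA in the Chil3 difference was not tested. Plasmacytoid dendritic cells can hold Plac8 and Ly6c2, and their marker Siglech was at 10.65, 0 and 7.79 in I/R libraries and at 0 in all Sham libraries. Their list summed to 1146 to 1747 in I/R against 645.3 to 1222 in Sham libraries, mostly from Tcf4, a widely expressed gene, and Cox6a2 was at 0 in all libraries. The T cell marker Cd3e was at 0 in all 6 libraries, the only 1 of 7 T and NK cell markers to be so. Their list summed to 191.7 to 251.5 in I/R against 187.6 to 314.5 in Sham libraries. The B cell list summed to 76.3 to 97.4 in I/R against 45.6 to 123.7 in Sham libraries. Leukocyte markers overlapped, at 14250 to 17520 in I/R against 16590 to 19060 in Sham libraries. Relative to 1000 of Ptprc, Chil3 was at 17.6, 38.6 and 20.6 in I/R libraries and at 0, 3.04 and 3.86 in Sham libraries, and Emb at 27.8, 37.65 and 23.95 in I/R libraries and at 8.60, 6.64 and 6.25 in Sham libraries. The lowest I/R value was 4.57 times the highest Sham value for Chil3 and 2.78 times for Emb, and Ly6c2 and Plac8 still overlapped.

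**Figure D4:**
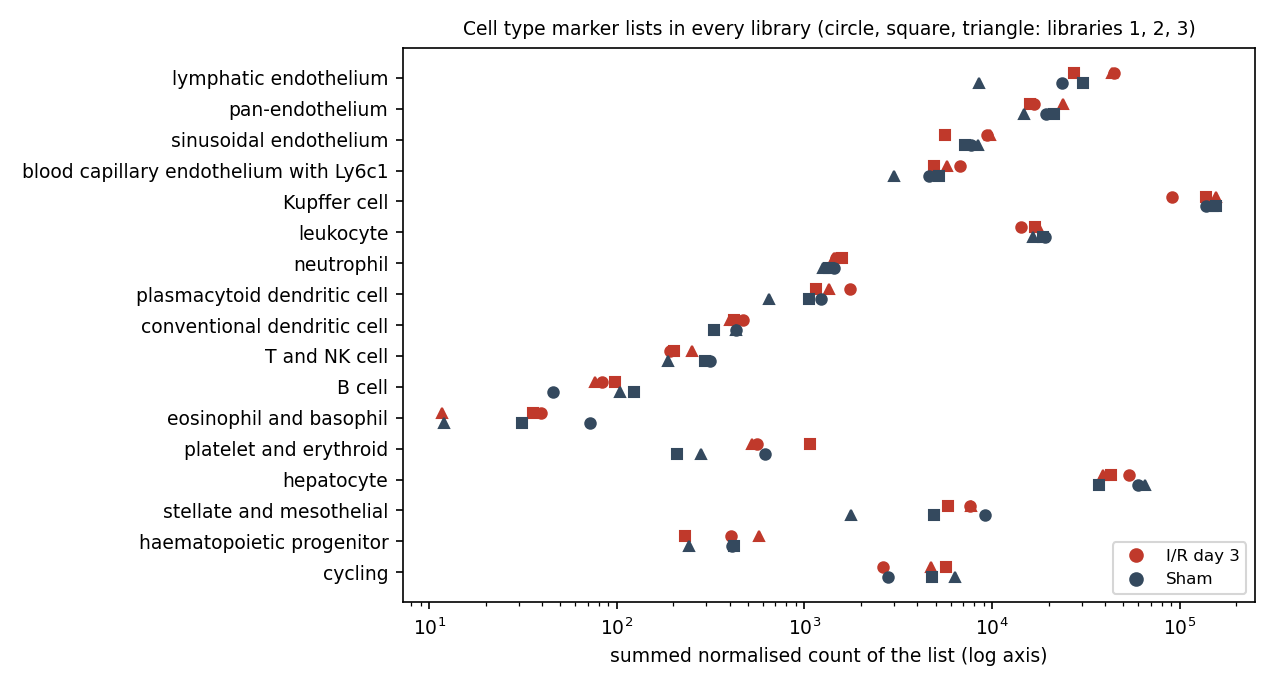
Summed normalised count of each cell type marker list on a log axis, for I/R (red) and Sham (blue) libraries, with symbols for libraries 1 to 3. Kupffer cell sums (91240 to 155900) exceed lymphatic sums (8463 to 44410) in every library, and the lymphatic sum is lowest in Sham library 3.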

How the data were processed

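The deposited table gives a signal of normalised counts per gene, as the authors named it. HISAT2 2.1.0 and StringTie 1.3.3b, Trim Galore 0.5.0, DESeq2 1.22.1 and the build mm10 are listed in the submitters' processing notes, without roles. How genes were counted is not given in the sources used here. In each library 100% of values were whole multiples (tolerance 0.01) of the smallest non-zero value, and these multiples were taken as recovered reads, which may derive from coverage. Floors of 3 reads cover counting error only. Libraries of a group differed beyond sampling noise (chi-square per degree of freedom 28.6 to 47.4), so each counted once. Limma 3.58.1 in R 4.3.3, with an intensity trend and no covariate, compared log2(value + 1) between 3 I/R and 3 Sham libraries for 13434 genes with a mean of at least 10, two-sided, with Benjamini-Hochberg adjustment over all of them and a threshold of 0.05. The added 1 draws differences of low genes towards 0. Exact permutation of 3 against 3 cannot go below p = 0.1. EdgeR 4.0.16 and DESeq2 1.42.0 (genes with at least 10 reads) used the recovered reads. Other alternatives were scaling, pseudocount, filter, trend, the replicate block and left-out libraries, and the ratios to Ptprc and Pecam1 were added after the data were seen. Scripts were tested on simulated data. The 5 genes and all lists were chosen with earlier results of these data known. Named genes are the 5, their relatives, per list the called genes and then the smallest p up to 4, and the nearest profiles (4 for the mean, 2 per gene). Gene positions are from GENCODE M21 and promoter letters from RefSeq on GRCm38, where 4 of the 5 genes had an entry, Cd93 being the exception. The values of 1 listed gene are not reported here.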

Additional observations from a re-analysis of the deposited data

How the results depend on the processing

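Emb, Cd93 and Chil3 were higher in I/R libraries under every alternative run. DESeq2 called all 3, at log2 differences of 1.84, 1.57 and 3.35. Limma called Cd93 also with no filter (1.62), after quantile normalisation (1.66) and with both shallowest libraries left out (1.90). Leaving out 1 library gave 1.66 to 2.097 for Emb, 1.42 to 1.89 for Cd93, 2.70 to 5.05 for Chil3, -0.43 to 0.13 for Plac8 and -0.88 to 1.63 for Ly6c2. Ly6c2 turned sign in edgeR (-0.070), DESeq2 (-0.051), after quantile normalisation (-0.028) and with both shallowest libraries left out (-1.53), and the cause was not tested. Ly6c2 has no value with a mean of at least 50, which it does not reach. Per 1000 of Pecam1, the lowest I/R minus the highest Sham value on the log2 scale was 0.61 for Emb, 0.41 for Cd93 and -1.24 for Plac8, against 1.19, 0.99 and -0.80 in normalised counts. Among all genes limma called 4 higher and 0 lower. Higher calls were 31 in DESeq2, 1 in edgeR, 1 with a mean of at least 50, 0 without the trend and 0 to 26 without 1 library, and lower calls 8 in DESeq2, 1 without both shallowest libraries and 0 to 2 without 1 library. Higher calls in the monocyte lists, 3 in limma, were 7 in DESeq2, 1 in edgeR, 1 with a mean of at least 50, 0 without the trend and 0 to 6 without 1 library. With the replicate block limma called 0 genes higher, and 0 in the monocyte lists. Same-numbered libraries did not deviate together (r of deviations -0.020, -0.21 and -0.0010 across genes). The labels do not say whether the numbers pair the samples, and correlations over so few libraries cannot decide it. With each gene scaled to SD 1, 1 of the 2 nearest profiles of Emb recurred, and 0 of those of the mean, Chil3, Ly6c2, Cd93 and Plac8. At 105 reads in all, depth limits what can be said of Ly6c2.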
